A study of Mus musculus with 17 samples.

Results

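The genes followed here are 10 neutrophil granule genes: 4 genes of the primary granule (Mpo, Elane, Prtn3 and Ctsg), Ms4a3, a membrane protein gene that marks granulocyte-monocyte progenitors, 4 genes of the secondary granule (Ngp, Camp, Ltf and Lcn2) and S100a8, which encodes a calcium-binding protein of the neutrophil cytosol. Members were all probe sets of the array that the platform annotation gives to one of these symbols alone, which gave 10 of 45101 probe sets, 1 for each gene, out of 18193 genes with a probe set of their own. Each value is therefore the reading of a single probe set, and levels were compared between samples of a gene but not between genes. The suffix of the S100a8 probe set, _s_at, is the maker's mark for probes that several transcripts may share.

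Neutrophils carry their antimicrobial proteins in granules that are filled in a fixed order during maturation. Myeloperoxidase and the serine proteases of the primary granule are made by granulocyte-monocyte progenitors and promyelocytes, whereas the antimicrobial peptides, lactoferrin and lipocalin of the secondary granule are made later, by myelocytes. C/EBPa is needed for stem and progenitor cells to enter the granulocyte line, and low transcript levels of Mpo can already be found in immature progenitors.

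RNA came from hematopoietic stem cells (HSCs), the cells that renew the blood, sorted from mice and hybridized to 17 arrays. There were 3 arrays of liver from fetuses of E15.5. After pIpC, 3 arrays of C/EBPa knockout (KO) and 3 of control mice were made at day 7, and 4 KO and 4 control arrays at day 21. By its title, the series deals with the part of C/EBPa in the resting state of adult HSCs. pIpC is a synthetic double-stranded RNA that induces interferon and is often given to activate Mx1-Cre. The sort kept adult cells with Sca-1, c-Kit and CD150 and without lineage markers or CD48; for fetal cells low Mac-1 was also required. The titles name the C/EBPa KO, while the genotype field of the KO samples names a PU.1 knock-in, and that of the controls wild type. The labels give no genotype and no pIpC day for fetal liver, no Cre line, no ages of the adult mice and no word on whether replicates are separate animals. All p-values therefore describe the spread between these samples, which may be technical.

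Values are deposited intensities on a linear scale with a floor of 16, a level that 20.4% to 25.2% of the probe sets of an array had. Cebpa, the gene for C/EBPa, had intensities of 32, 31.0 and 20.7 on the KO arrays of day 7, against 136.5, 141 and 315 on the control arrays, and of 26.7, 29.9, 25.0 and 39.8 on the KO arrays of day 21, against 275, 115, 115 and 532.5 on the control arrays. It was lower on every KO array than on every control array, which fits the titles; the labels do not place its probe set inside or outside the deleted sequence. Spi1, the gene for PU.1, averaged 382 ± 67.9 in KO and 312 ± 114 in control at day 7 (SD, n = 3 each), and 316 ± 90.4 in KO and 362 ± 204 in control at day 21 (SD, n = 4 each). Kit, which encodes a surface receptor used in the sort, lay between 549 and 602 in fetal liver, between 694 and 856 in KO and 612 and 868 in control at day 7, and between 442 and 736 in KO and 581 and 905 in control at day 21. Itgam, which encodes a chain of Mac-1, was at the floor on 2 of 3 KO and all 3 control arrays of day 7 and on all 4 KO and all 4 control arrays of day 21, and reached 102 on a fetal array. Control replicate 3 of day 21 lay farthest from its group mean over all genes, with a root mean square deviation of 0.82 on the log2 scale.

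The upstream sequences of 5 members are shown because Mpo and Elane differed most between KO and control in their class, Prtn3 lies next to Elane and did not follow it, and Ngp and Camp rose in fetal liver. They come from RefSeq on GRCm38.p6, which held a promoter for all 10 members, and give the 250 bases before the annotated start site on the gene's own strand. Capitals mark GCAAT or its reverse complement ATTGC, a half-site of C/EBP factors, and GAGGAA or its reverse complement TTCCTC, a core bound by PU.1. The windows are chr11:87793534-87793783 (+) for Mpo, chr10:79886062-79886311 (+) for Elane, chr10:79879417-79879666 (+) for Prtn3, chr9:110419558-110419807 (+) for Ngp and chr9:109849457-109849706 (-) for Camp.
Mpo: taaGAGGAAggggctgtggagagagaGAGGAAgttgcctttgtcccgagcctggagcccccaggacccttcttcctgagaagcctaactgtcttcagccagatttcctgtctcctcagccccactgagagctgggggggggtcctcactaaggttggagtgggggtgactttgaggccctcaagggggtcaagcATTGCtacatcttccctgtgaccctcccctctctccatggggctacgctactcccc
Elane: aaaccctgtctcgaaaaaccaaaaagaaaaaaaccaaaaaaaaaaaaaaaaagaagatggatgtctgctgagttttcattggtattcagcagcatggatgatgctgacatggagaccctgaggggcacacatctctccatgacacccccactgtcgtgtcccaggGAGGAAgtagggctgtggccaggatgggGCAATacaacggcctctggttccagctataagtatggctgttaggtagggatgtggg
Prtn3: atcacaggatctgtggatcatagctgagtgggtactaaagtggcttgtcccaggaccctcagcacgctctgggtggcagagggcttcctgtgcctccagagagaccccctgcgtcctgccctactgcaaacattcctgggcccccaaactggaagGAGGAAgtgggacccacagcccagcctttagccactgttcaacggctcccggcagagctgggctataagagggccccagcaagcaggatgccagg
Ngp: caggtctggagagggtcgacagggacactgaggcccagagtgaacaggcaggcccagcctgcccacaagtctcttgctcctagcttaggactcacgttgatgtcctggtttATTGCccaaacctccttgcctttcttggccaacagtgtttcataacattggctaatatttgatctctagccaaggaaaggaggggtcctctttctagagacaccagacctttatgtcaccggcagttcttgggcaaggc
Camp: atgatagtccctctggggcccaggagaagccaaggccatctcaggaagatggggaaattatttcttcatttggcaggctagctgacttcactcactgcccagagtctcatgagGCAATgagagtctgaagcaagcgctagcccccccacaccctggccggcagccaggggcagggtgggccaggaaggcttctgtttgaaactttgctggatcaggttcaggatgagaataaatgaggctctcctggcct
The letters GCAAT, read on both strands, were found upstream of 7 of the 10 members (Mpo, Elane, Ngp, Camp, Ltf, Lcn2 and S100a8), and in 23.1% of 32851 RefSeq promoters of the same length. The letters GAGGAA, also on both strands, were found upstream of 7 members (Mpo, Elane, Prtn3, Ctsg, Ltf, Lcn2 and S100a8), and in 23.3% of all promoters. All 4 primary granule genes held GAGGAA, while of these Prtn3 and Ctsg held no GCAAT in this window. In Elane the core began 85 bases and the half-site 57 bases before the start site. In Mpo the half-site began 56 bases before it. The motifs do not overlap each other in these windows, and a match of letters is not a measured site.

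Mpo, which encodes myeloperoxidase, was the member with the largest difference between KO and control at day 7 and over both days; at day 21 S100a8 was as large. Its intensity was 37.9, 163.5 and 49.3 on the KO arrays of day 7, against 847, 202 and 497 on the control arrays. All KO arrays lay under all control arrays at this day. At day 21 it was 46.5, 252, 24.2 and 29.9 on the KO arrays, against 29.3, 592, 448 and 431 on the control arrays. Control replicate 1 had a level like that of the KO arrays and KO replicate 2 stood highest in its group, so the groups overlapped. Fetal liver had 2751, 613.5 and 544.5.

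Elane encodes neutrophil elastase. It read 16, 16.2 and 19.7 on the KO arrays of day 7, at or just above the floor, against 24.8, 34.7 and 58.6 on the control arrays. At day 21 it read 16, 19.6, 16 and 16 in KO, against 16, 45.0, 65.4 and 44.0 in control. The control array at the floor was again replicate 1, whose Cebpa intensity of 275 was not low. Fetal liver had 977, 23.9 and 132, so that replicate 1 was high and replicate 2 lay below every day 7 control.

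Prtn3 encodes proteinase 3, a close relative of elastase, and its start site lies 6.64 kb upstream of that of Elane. Its intensity was 1046, 705 and 1380 on the KO arrays of day 7, against 963, 571.5 and 1022 on the control arrays. At day 21 it was 1296, 491, 917.5 and 867 in KO, against 930.3, 941, 1191 and 1181 in control, and fetal liver had 926, 641 and 571.5. Over all 17 arrays it spanned 2.81-fold, against 61.1-fold for Elane and 114-fold for Mpo. Ctsg, which encodes cathepsin G, lay at the floor on 14 of 17 arrays. It was above it at 45.0 on fetal replicate 3 and at 19.7 and 131 on control replicates 2 and 3 of day 21, and no KO array left the floor.

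Ms4a3 ran the other way at day 21. It read 31.9, 98.5, 97.3 and 181 in KO, against 28.6, 25.0, 37.0 and 20.3 in control, so that 3 of 4 KO arrays lay above all controls. At day 7 it read 23.5, 47.2 and 128 in KO, against 22.4, 51.3 and 86.2 in control, so the groups overlapped. Fetal liver had 133.5, 85.1 and 42.2.

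The highest readings of all 4 secondary granule genes came from fetal liver, where the 3 arrays differed widely. Ngp, which encodes neutrophilic granule protein, read 5502, 1976 and 233 in fetal liver. The adult arrays gave 33.2, 45.7 and 96.6 in KO and 34.5, 68.8 and 144 in control at day 7, and 37.5, 26.7, 37.6 and 34.6 in KO and 45.1, 51.7, 33.1 and 258 in control at day 21. Control replicate 4 of day 21 was the one adult array within the fetal range.

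Camp encodes the precursor of the antimicrobial peptide cathelicidin. It read 5224, 1439 and 530.3 in fetal liver. The adult arrays gave 47.1, 49.95 and 81.1 in KO and 218, 72.8 and 209 in control at day 7, and 62.6, 66.4, 35.4 and 59.9 in KO and 64.6, 44.0, 63.3 and 526 in control at day 21. Every fetal array lay above every adult array, by a narrow margin over control replicate 4 of day 21.

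Lcn2 encodes lipocalin 2, which binds bacterial siderophores. It read 2581, 1203 and 81.0 in fetal liver, 37.5, 31.5 and 64.0 in KO and 38.4, 48.8 and 58.9 in control at day 7, and 33.9, 39.5, 39.5 and 33.4 in KO and 30.0, 48.0, 46.3 and 142 in control at day 21. Fetal replicate 3 lay within the adult range. Ltf encodes lactoferrin, an iron-binding protein. It read 1056, 112 and 63.8 in fetal liver, 45.8, 52.3 and 50.7 in KO and 42.4, 244 and 51.0 in control at day 7, and 57.1, 47.0, 43.6 and 40.7 in KO and 48.4, 47.7, 52.7 and 109 in control at day 21. Fetal replicate 1 was the array that stood out, and control replicate 2 of day 7 exceeded the other fetal arrays.

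S100a8 covered the widest range of the members, 592-fold over the 17 arrays. It read 9649, 6041 and 1330 in fetal liver, 514, 61.3 and 527 in KO and 40.6, 470 and 1218 in control at day 7, and 28.6, 29.6, 25.8 and 28.9 in KO and 60.5, 228.5, 16.3 and 1132 in control at day 21. All fetal arrays lay above all adult ones, by a narrow margin over control replicate 3 of day 7. At day 21 the 4 KO arrays were alike while the controls spread from 16.3 to 1132, all below the lowest fetal array.

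**Figure D1:**
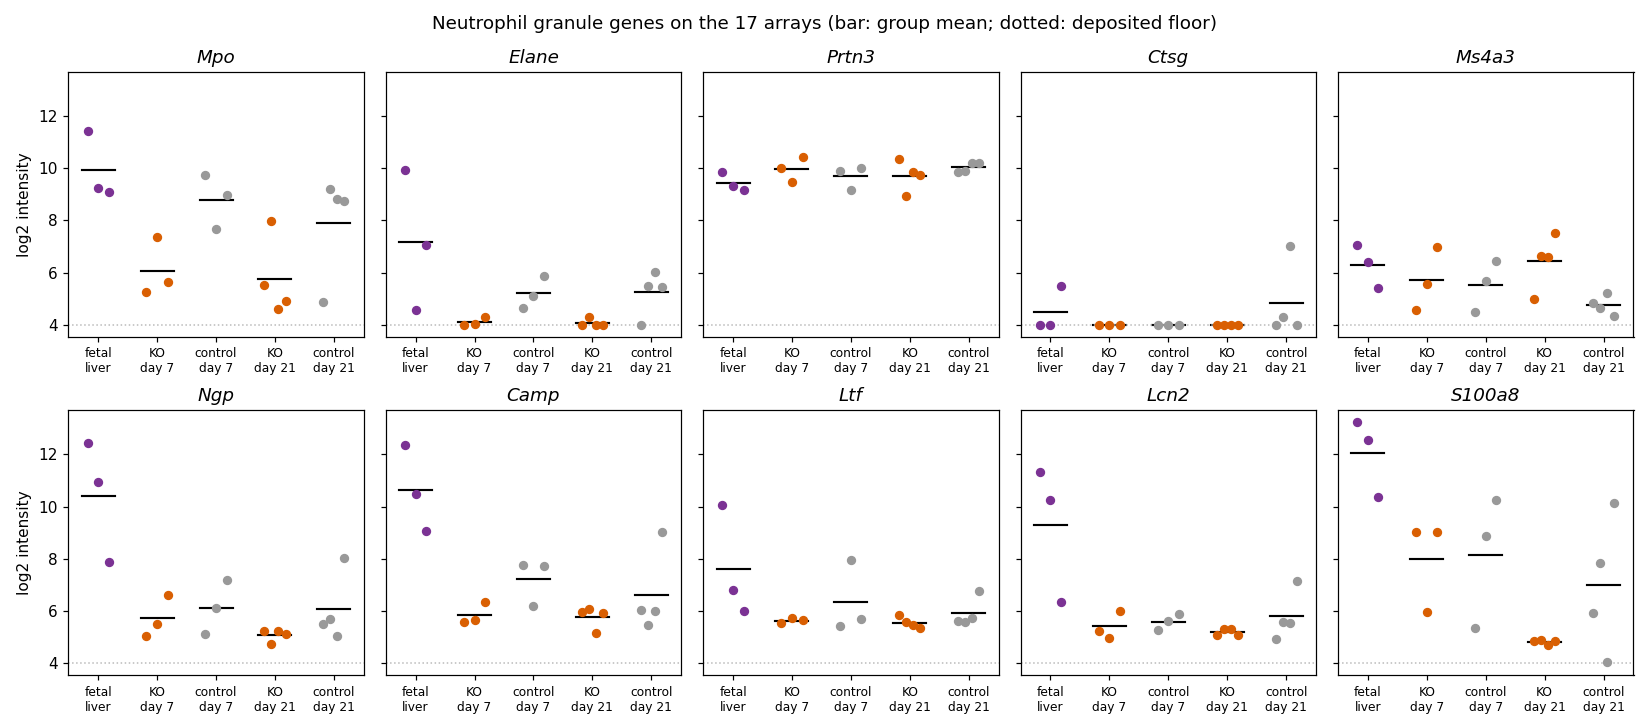
Log2 intensity (vertical axis) of the 10 granule genes on each of the 17 arrays, by group (horizontal axis); points are arrays in replicate order, bars are group means and the dotted line is the deposited floor at 4. By group mean Mpo, Elane, Ngp, Camp, Ltf, Lcn2 and S100a8 are highest in fetal liver. Only Camp and S100a8 have every fetal array above every adult one. Mpo is lower in KO than in control on most arrays, and Prtn3 stays within a 2.81-fold range.

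Levels were then compared between KO and control, which addresses whether loss of C/EBPa lowers granule transcripts in the stem cell gate. limma fitted the group means to log2 intensities of 16784 genes on all arrays. Calls were made where the Benjamini-Hochberg adjusted p over all these genes was under 0.05. In bulk RNA, fewer granulocyte-primed cells in the sort and less RNA of a gene per cell cannot be told apart. At day 7 limma called 0 of the 10 members and 0% of all genes, with an unadjusted p under 0.05 for 1 member (Mpo) and for 6.72% of all genes. Of the members 7 were lower in KO, 2 were higher, and Ctsg lay at the floor on all 6 arrays; 47.3% of all genes were lower. The median log2 change was −0.30 for the members and 0 for all genes.

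The largest value at day 7 was that of Mpo, with a log2 change of −2.71 (SE 1.17, 95% confidence interval −5.23 to −0.19, limma adjusted p = 0.706). Camp had −1.37 (SE 0.89) and Elane −1.10 (SE 0.93), and for Elane the floor limits how low KO could read. Mpo and Elane were the members whose groups did not overlap, both lower in KO, as were 6.39% of all genes. Intervals for the others were wide: that of S100a8 ran from −3.35 to 3.03 and that of Ngp from −2.54 to 1.72.

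At day 21 limma again called 0 of the 10 members, against 0.0179% of all genes, with an unadjusted p under 0.05 for 1 member (Ms4a3) and for 10.1% of all genes. Of the members 9 were lower in KO and 1 was higher. Their median log2 change was −0.84 against 0 for all genes, of which 47.8% were lower. Ctsg counts among the 9, with all 4 KO arrays at the floor. S100a8 had −2.17 (SE 1.28, 95% confidence interval −4.93 to 0.59), which was −1.11 without control replicate 4. Mpo had −2.16 (SE 1.01, interval −4.34 to 0.03), and Ms4a3 had 1.67 (SE 0.61, interval 0.35 to 2.99, limma adjusted p = 0.370). All 10 members had overlapping groups at this day, while 3.14% of genes were higher and 2.35% lower on every KO array. Without control replicate 1 the change of Mpo was −3.17 (adjusted p = 0.243, over all alternatives 0.243 to 0.743).

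Over both days together Mpo was lower in KO by a log2 change of −2.43 (SE 0.77, 95% confidence interval −4.10 to −0.77, limma adjusted p = 0.256). It was not called, and this held in all 25 alternative settings, which gave changes between −2.94 and −2.05. Elane had −1.13 (SE 0.62), Camp −1.11 (SE 0.59), S100a8 −1.16 (SE 0.98) and Prtn3 −0.02 (SE 0.23, interval −0.51 to 0.48). limma called 0 members and 0.0715% of all genes, Cebpa among them, at −2.78 (SE 0.36, adjusted p = 0.0426); at an unadjusted p under 0.05 stood 1 member and 11.7% of genes. Of the members 4 were lower by over 1 on the log2 scale, as were 1.01% of all genes. These 4 are Mpo, Elane, Camp and S100a8. Over the 17 arrays, group differences included, 0.22%, 1.71%, 0.262% and 0.00596% of tested genes had a larger SD than they had. A change of over 1 is thus more easily reached by these 4 than by most genes. Lower by any amount were 9 members, as were 48.3% of all genes. These 9 include Prtn3 at −0.02 and Ctsg, which no KO array raised above the floor.

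Few markers of other cells were called between KO and control, and some lists stood to one side. In the mean of both days all 6 measured erythroid markers were higher in KO, with 0 called. At each single day 5 were higher and 1 lower. Their sums ran from 919 to 3980 in KO and 410 to 1864 in control at day 21. Of 6 megakaryocyte markers 5 were higher over both days and 1 was called, the platelet chemokine gene Ppbp at 2.0 (SE 0.33, limma adjusted p = 0.0448). The megakaryocyte sums were 1494 to 3879 in KO and 708 to 1097 in control at day 7, and 3142 to 6191 in KO and 1072 to 8225 in control at day 21, where a single gene, Gp9, made up 7224 of the highest control sum. Monocyte, B cell, T and NK cell and endothelial markers had 0 called, with medians from −0.05 to 0.08. Of 5 measured hepatocyte markers 4 were lower and 1 higher over both days, with a median of −0.59 and 0 called. In the mean of both days all 3 multipotent progenitor markers, Cd48 among them, were higher, with a median of 0.65 and 0 called. Of the 3, 2 were higher and 1 lower at day 21. Their sums were 1264 to 2274 in KO and 662 to 961 in control at day 7. At day 21 they were 527 to 846 in KO and 382 to 1622 in control. Of 8 measured HSC and gate markers 2 were higher and 6 lower over both days, with 0 called and a median of −0.37. At day 21 all 8 were lower (median −0.43). Their sums were 5031 to 5979 in KO and 7429 to 8197 in control at day 7, and 3853 to 6547 in KO and 6016 to 8382 in control at day 21. Cd48, whose product the sort excludes, read 60.9 to 283 in KO and 16 to 18.8 in control at day 7, and 90.3 to 308 in KO and 18.6 to 658 in control at day 21. The part of such differences in the granule values was not tested. The 4 secondary granule genes summed to 163.5 to 292 in KO and 333.5 to 462.5 in control at day 7. At day 21 they summed to 156 to 191 in KO and 188 to 1034 in control, with overlap.

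**Figure D2:**
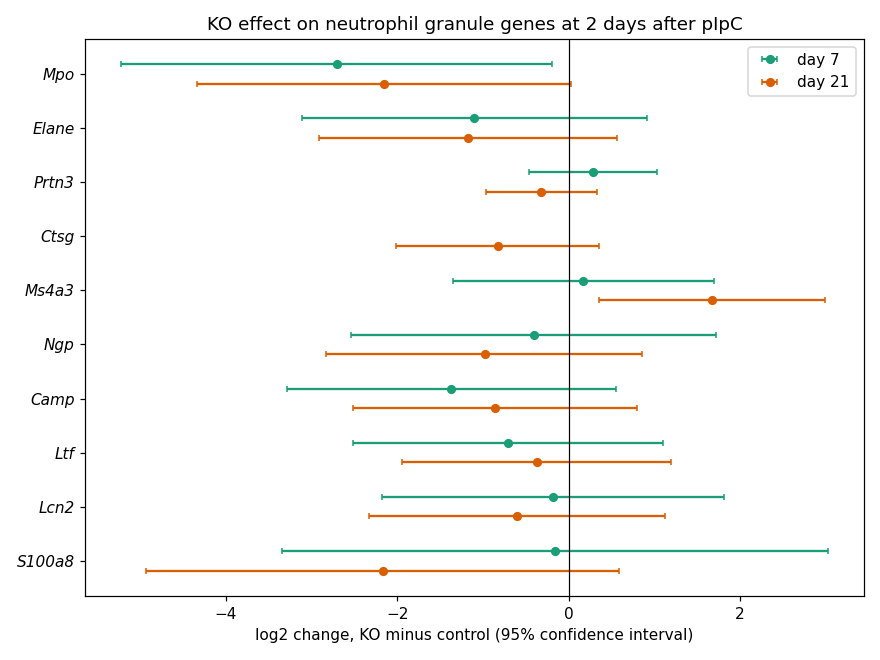
Log2 change between KO and control (horizontal axis) with its 95% confidence interval for each granule gene at day 7 and day 21 after pIpC; Ctsg has no value at day 7, where all its arrays lay at the floor. Mpo has negative values at both days (−2.71 and −2.16), Ms4a3 a positive one at day 21 (1.67), and most intervals include 0.

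The KO effects of both days were compared directly. limma called 0 members and 0% of all genes for this difference, and an unadjusted p under 0.05 was reached by 0 members and by 4.52% of genes. The widest gaps were those of S100a8, at −2.0 (SE 1.96, 95% confidence interval −6.22 to 2.21), and Ms4a3, at 1.5 (SE 0.94, interval −0.51 to 3.52). Mpo had 0.55 (SE 1.55). Control HSCs of day 21 were also set against those of day 7, and 0 members were called, against 0.0298% of all genes; 0 members and 8.06% of genes had an unadjusted p under 0.05. Changes ran from −1.17 (S100a8, SE 1.39) to 0.83 (Ctsg, SE 0.59).

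Replicates of a group were far apart for several members. In fetal liver the SD of log2 intensity reached 2.68 for Elane, 2.62 for Lcn2, 2.33 for Ngp and 2.14 for Ltf. At day 21 the SD of log2 intensity among KO arrays was 0.09 for S100a8, 0.13 for Lcn2 and 0.23 for Ngp, against 2.62, 0.95 and 1.33 among control arrays. The median SD over all tested genes was 0.35 in KO and 0.46 in control. Of the 10 members 8 had a smaller SD in KO at day 21, as did 64.8% of all genes, and at day 7 it was 5 of 10 and 57.4%. Prtn3 and Ms4a3 were the exceptions at day 21, with SDs of 0.58 and 1.04 in KO, against 0.20 and 0.36 in control. Several KO values lie near the floor, where little spread can be read.

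Fetal liver was compared with the mean of both adult control groups, since the series title concerns how adult HSCs acquire their resting state. The control arrays are the same ones that KO was set against. Of the 4 secondary granule genes 3 were called higher in fetal liver. Ngp rose by 4.32 on the log2 scale (SE 0.84, limma adjusted p = 0.0107), Camp by 3.71 (SE 0.76, adjusted p = 0.0145) and Lcn2 by 3.61 (SE 0.79, adjusted p = 0.0215). S100a8 had the largest change, 4.49 (SE 1.26, 95% confidence interval 1.79 to 7.19), and did not pass over all genes (adjusted p = 0.0679), although its groups did not overlap. Ltf was not called, with 1.49 (SE 0.71, interval −0.05 to 3.02, adjusted p = 0.313), and ran from 0.27 to 2.30 with 1 array left out.

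None of the primary granule genes was called. Elane had 1.96 (SE 0.79, 95% confidence interval 0.25 to 3.67), Mpo 1.58 (SE 0.99, interval −0.56 to 3.72), Ctsg 0.08 (SE 0.54) and Prtn3 −0.42 (SE 0.29, interval −1.05 to 0.21). Ms4a3 had 1.15 (SE 0.60) and was not called either. Elane and Mpo had larger values than Ltf, and whether the changes of both granule classes differ was not tested. In all, 3 of 10 members were called, all higher, where 1.88% of all genes were called higher and 1.77% lower; an unadjusted p under 0.05 was found for 5 members and 16.8% of genes. Of the members 9 were higher by any amount, as were 52% of all genes. By over 1 on the log2 scale 8 were higher, as were 8.54% of all genes. For each of these 8, at most 16.2% of tested genes had a larger SD over the 17 arrays, fetal ones included. The median change was 1.77 for the members against 0.02 for all genes. Camp and S100a8 were higher on every fetal array than on every control array, as were 3.37% of genes.

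These calls rest on few fetal arrays. Without fetal replicate 1 Ngp kept its call at a change of 3.31 (limma adjusted p = 0.0492), while Camp and Lcn2 lost theirs at 2.85 (adjusted p = 0.0685) and 2.60 (adjusted p = 0.0961). Without fetal replicate 2 Ngp (adjusted p = 0.0561) and Lcn2 (adjusted p = 0.108) lost their calls, and Elane passed at 3.26 (adjusted p = 0.0140). With only the 10 arrays compared in the fit, 0 members passed (Ngp adjusted p = 0.108). Over all 23 alternatives Ngp passed in 21, Camp in 20, Lcn2 in 18 and S100a8 in 2, with adjusted p from 0.000882 to 0.108 for Ngp, 0.00162 to 0.130 for Camp, 6.06e-05 to 0.159 for Lcn2 and 0.0268 to 0.235 for S100a8.

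**Figure D3:**
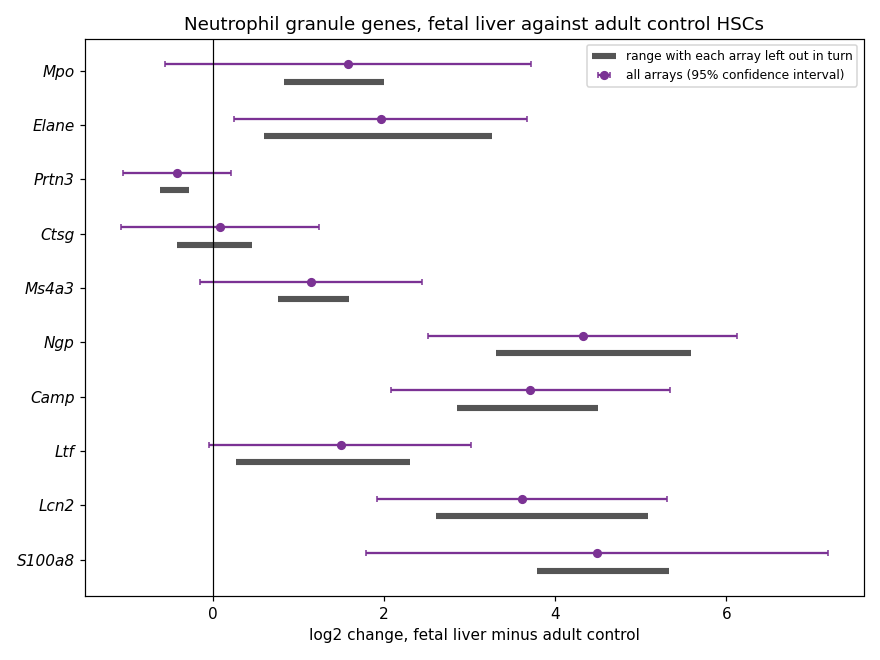
Log2 change between fetal liver and adult control HSCs (horizontal axis) for each granule gene, with its 95% confidence interval over all arrays (points and thin lines) and the range of the change when each compared array is left out in turn (thick bars). Ngp, Camp, Lcn2 and S100a8 stay at or above 2.60 throughout, whereas Ctsg takes both signs.

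Some transcripts of other cell types were also higher on the fetal arrays. Of 14 macrophage and monocyte markers 4 were called, all higher, with Cd5l at 3.61 (SE 0.16, limma adjusted p = 5.29e-08) and C1qb, a complement subunit gene, at 6.0 (SE 0.64, adjusted p = 9.15e-05), Mrc1 at 4.94 (SE 0.44) and Marco at 2.32 (SE 0.19). Their summed intensity ran from 3060 to 3297 in fetal liver, against 624 to 662 in day 7 and 480 to 824 in day 21 controls. Of 5 measured hepatocyte markers 2 were called higher (Alb and Apoa1), with sums from 650 to 10800 in fetal liver, against 317 to 595 in day 7 and 267 to 975 in day 21 controls. Of 6 endothelial markers 5 were called higher, with sums from 2101 to 11440, against 282 to 726 in day 7 and 428 to 671 in day 21 controls. Of 6 erythroid markers 3 were called higher, with sums from 3472 to 6032 in fetal liver, against 341 to 1473 in day 7 and 410 to 1864 in day 21 controls. Megakaryocyte markers (2 of 6 higher, 4 lower) and T and NK cell markers (1 of 6 higher, 4 lower) had 0 called. All 3 multipotent progenitor markers were higher in fetal liver, with a median of 1.42 and 0 called. Of 8 measured HSC and gate markers 3 were higher and 5 lower there, with a median of −0.30 and 1 called lower.

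The order of the fetal arrays differed between these lists. The sum of the 4 secondary granule genes was 14360 on replicate 1, 4729 on replicate 2 and 908 on replicate 3. A list of 18 other later granule and mature neutrophil genes, S100a9 among them, had the same order. Its sums were 19570, 8989 and 2914. The hepatocyte sum was 650 (5 genes), 10800 and 7221 on the same arrays and the endothelial sum 2101, 7422 and 11440, so the array with the highest granule sum had the lowest of both. The macrophage sum was nearly level, at 3060, 3210 and 3297, but its single markers were not all level. Over the fetal arrays Mrc1 ran from 238 to 1419 and Cd68 from 106 to 588, while Cd5l ran from 260 to 314. The part of maturing granulocytes or of other cells in the fetal values was not tested. Stage, tissue, pIpC and the sort, which for fetal cells also required low Mac-1, cannot be told apart in this comparison.

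**Figure D4:**
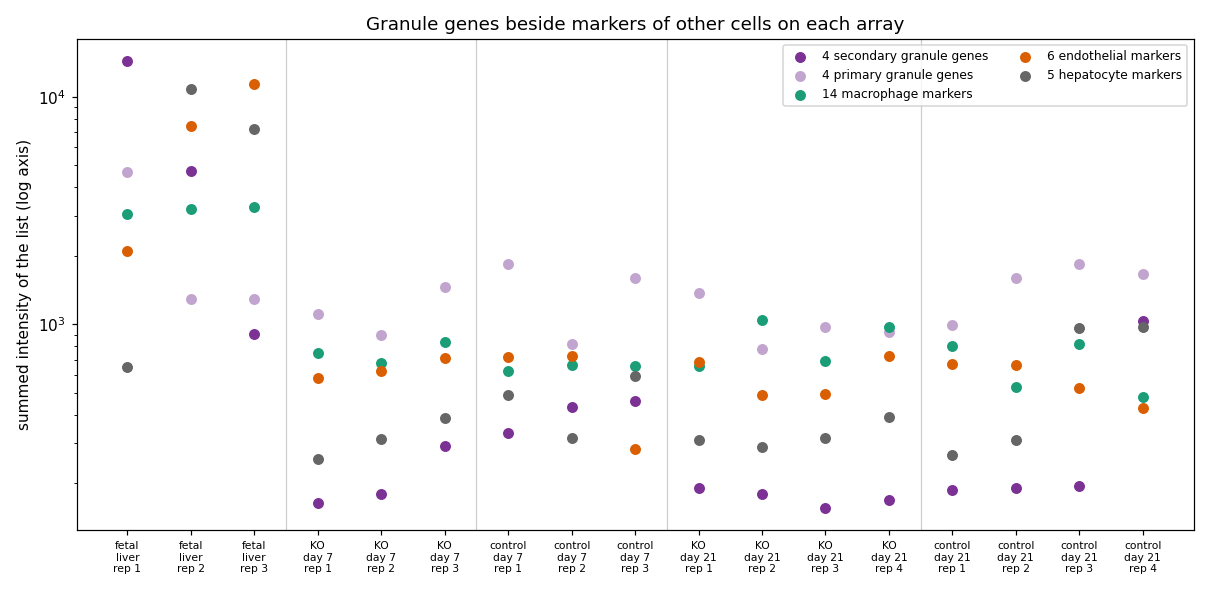
Summed intensity (vertical log axis) of the primary and secondary granule genes and of macrophage, endothelial and hepatocyte markers on each array (horizontal axis, by group and replicate). The secondary granule sum falls between 908 and 14360 in fetal liver and reaches 1034 on 1 adult array, control day 21 replicate 4.

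Other genes of the granulocyte line gave the setting for these values. Of 23 later granule and mature neutrophil genes 18 were tested, the rest being unnamed or at the floor throughout. For 4 genes every adult control array was at the floor, so that fetal liver could not read lower. Of the other 14, 12 were higher there. Of all 18, 1 was called, Pglyrp1, which encodes a peptidoglycan recognition protein of the granules, at 3.14 (SE 0.72, limma adjusted p = 0.0287). S100a9, which encodes the partner of S100a8 in calprotectin, ran from 1535 to 11450 in fetal liver, against 111 to 1340 in day 7 and 27.0 to 1890 in day 21 controls. In KO over both days 4 of the 18 were higher and 11 lower, with a median of −0.04 and 0 called. S100a9 had the smallest p among them, at −1.70 (SE 0.95, adjusted p = 0.515).

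Of 9 other primary granule and promyelocyte genes 6 were measured. Srgn, which encodes the proteoglycan serglycin that packs granule proteases and is also found in many blood cells, fell by 1.08 in fetal liver (SE 0.17, limma adjusted p = 0.00281), and 4 of the 6 were lower there. In KO over both days 4 of the 6 were higher and 0 were called. Serpinb1a, which encodes an inhibitor of neutrophil serine proteases, had 1.32 (SE 0.40, adjusted p = 0.230) and Cst7, an inhibitor of cysteine proteases, 0.90 (SE 0.33, adjusted p = 0.320). Cst7 lay at the floor on all 4 day 21 controls and between 19.6 and 103 on the KO arrays of that day.

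Among 12 measured transcription factors of the line, Cebpa was the only one called in KO over both days. Klf4, a factor of monocyte differentiation, had −1.13 (SE 0.24, limma adjusted p = 0.0983). In fetal liver Irf8, a factor of the monocyte line, rose by 2.04 (SE 0.37, adjusted p = 0.00726), Klf4 fell by 2.92 (SE 0.30, adjusted p = 7.85e-05) and Cebpa fell by 2.08 (SE 0.47, adjusted p = 0.0246). Cebpa read 40.4, 30.2 and 81.0 on fetal replicates 1 to 3, whose secondary granule sums are given above. Of 6 myeloid cytokine receptors 1 was called, Csf3r, the receptor gene for granulocyte colony-stimulating factor, which fell by 1.04 in fetal liver (SE 0.25, adjusted p = 0.0363). It averaged 234.5 ± 29.4 there (SD, n = 3), against 608 ± 106 (SD, n = 3) in day 7 and 393 ± 119 (SD, n = 4) in day 21 controls, the opposite direction to Ngp, Camp and Lcn2. In KO over both days Csf3r had −0.46 (SE 0.19, adjusted p = 0.384).

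Several members varied together, within granule classes and across them. As a description over the 17 arrays, which share groups and depth of signal, Pearson's r of log2 intensity was 0.97 between Ngp and Lcn2, 0.94 between Ngp and Camp and 0.87 between Ngp and S100a8. With group means removed these were 0.92, 0.79 and 0.75. Over the 14 adult arrays Ngp had 0.87 with Lcn2, 0.72 with Camp, 0.81 with S100a8 and 0.47 with Ltf. Mpo and Elane had 0.75 over all arrays, 0.78 over the 14 adult arrays and 0.51 within groups. Pairs across the classes reached similar values. Over all arrays Elane had 0.76 with Ltf, 0.74 with Camp and 0.71 with Ngp, and Mpo had 0.72 with Camp. Within groups Elane and Ltf had 0.59, and Mpo and Camp 0.41. Mpo and S100a8 had 0.53 over all arrays and 0.01 within groups. Elane and its neighbour Prtn3 had −0.04 over all arrays and 0.29 within groups.

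Among 10882 genes whose mean lay above the median probe set, those most like Ngp over the 17 arrays were Ndufa4l2 (r = 0.886), Rab5c (0.881), Marco (0.871), S100a9 (0.854) and Igf2r (0.839). Marco and S100a9 are a macrophage scavenger receptor gene and a neutrophil gene, and in these 5 the highest array was a fetal one. Those most like Mpo were Fscn1 (r = 0.770), Ebi3 (0.759), Nrk (0.757), Tbc1d7 (0.756) and Aqp6 (0.756), a weaker likeness, with no gene of the granule lists among them.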

How the data were processed

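The submitters' processing notes name RMA, with no role or version, and how the authors scaled the deposited intensity values is not known here. The deposited table holds 1 intensity per probe set on a linear scale, with a floor of 16; log2 was taken with no pseudocount. The platform annotation gave the gene of each probe set, updated by gene ID to RefSeq symbols (34754 matched). The probe set with the highest mean stood for each of 18193 genes, and 1409 at the floor on all arrays were left out, which left 16784. Groups came from the sample titles. limma 3.58.1 in R 4.3.3 (lmFit, eBayes) fitted 1 mean per group to all 17 arrays, without covariates, with Benjamini-Hochberg adjustment over all genes. The fit was tested on simulated data. Arrays give no count depth; their number limits the precision. The 10 members, the other lists and the motifs were chosen with earlier results of these data, or the sequences, known. Lists are described by counts without a set test. From each of 4 other lists of granulocyte genes the text names called members, up to 4, or those with the smallest p. S100a9 in fetal liver, Cd48, Kit, Itgam, the levels of Cst7 and the fetal intensities of Cebpa were named after their values were seen. Likeness to Mpo and Ngp was ranked for the 5 highest correlations. Alternatives changed the normalization, filter, floor, probe set rule, arrays, weights and replicate block.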

Additional observations from a re-analysis of the deposited data

Results flagged for a closer look

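In each group of 4 arrays an array was looked for that lay far from the other 3 on the log2 scale. Of 19 groups checked 6 had one. The cutoff flags about 1 in 20 groups of independent, normally spread values. The groups here share arrays and some hold values at the floor, so these rates cannot be compared. Mpo on control day 21 replicate 1 read 29.3, with a gap of 0.89 of the group's range. Camp on control day 21 replicate 4 read 526 (0.84 of the range) and on KO day 21 replicate 3 it read 35.4 (0.84). Ltf on control day 21 replicate 4 read 109 (0.88). Ctsg on control day 21 replicate 3 read 131 (0.90), and Elane on KO day 21 replicate 2 read 19.6 where the other 3 arrays were at the floor (1). The 4 control values fall on replicates 1, 3 and 4 of day 21.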

How the results depend on the processing

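For the granule genes, KO against control gave 0 calls in every setting run, at day 7, at day 21, over both days and for the difference between days, and so did control day 21 against day 7. In fetal liver 3 were called; 1 was called with day 7 controls alone, 0 with only the arrays compared, and 1 to 4 with 1 array left out. Counts over all genes moved more. At day 7 the 0 calls became 1 with all probe sets, 2 with the mean of probe sets, and 0 to 6 with 1 array left out. At day 21 the 3 calls became 12 with all probe sets, 19 with the mean of probe sets or with the floor raised to 32, 11 above the median probe set, 1 with array weights, 0 with only the arrays compared, and 1 to 42 with 1 array left out. Over both days the 12 calls became 29 with the mean of probe sets, 44 with array weights, 7 above the median probe set, 5 with no filter or with only the arrays compared, 1 with arrays centred on their median, and 0 to 11 with 1 array left out. The difference between days gave 1 call with all probe sets and 0 to 2 with 1 array left out. In fetal liver the 613 calls became 1228 with all probe sets, 402 with day 7 controls alone and 234 with only the arrays compared. For control day 21 against day 7 the 5 calls became 20 with all probe sets, 1 with array weights, 3 with the mean of probe sets, no filter, the floor raised to 32 or the median filter, and 1 to 11 with 1 array left out. An alternative added after seeing the data left out the control array farthest from its group at each day; it gave 3 calls at day 7, 5 at day 21, 4 for the difference between days and 11 for the control days, and Lcn2 in fetal liver lost its call (3.49, adjusted p = 0.0573). The cause of these moves was not tested, beyond fewer or more features and arrays in the fit.

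Signs turned only for changes that were not called. With array weights Prtn3 over both days was 0.10, Elane between days 0.10 and Elane between control days −0.19; without the far control arrays Ms4a3 at day 7 was −0.35, Prtn3 over both days 0.07, and Elane 0.48 and −0.51 in the same 2 comparisons. Ngp between control days was 0.09 with centred arrays and 0.06 with quantile normalization, and Ctsg in fetal liver −0.33 against day 21 controls and −0.09 with the raised floor. With 1 array left out, day 7 changes ran from −0.48 to 0.75 for Ms4a3, −1.17 to 0.09 for Ltf, −1.57 to 0.89 for S100a8, −0.92 to 0.11 for Ngp and −0.48 to 0.03 for Lcn2; over both days Prtn3 ran from −0.15 to 0.11 and in fetal liver Ctsg from −0.42 to 0.45. The difference between days ran from −0.49 to 0.21 for Elane, −0.46 to 0.80 for Ltf, −0.46 to 1.19 for Mpo, −1.10 to 0.07 for Ngp and −0.71 to 0.03 for Lcn2. Between control days it ran from −0.25 to 0.45 for Elane, −0.89 to 0.38 for Ltf, −0.72 to 0.45 for Ngp, −1.43 to 0.14 for Mpo and −0.24 to 0.50 for Lcn2. Same-numbered KO and control arrays deviated together with correlations from 0.029 to 0.078 at day 7 and −0.025 to 0.021 at day 21. These are low, but arrays of unlike number were not compared, so whether the numbers pair arrays stays unknown. With the replicate block the calls were 0 at day 7, 3 at day 21, 11 over both days and 524 in fetal liver. Of the last, 3 were granule genes. Values near the floor of 16 limit what can be read for Ctsg and Elane.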

Other observations

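Of 6 measured genes of mast cells, basophils and eosinophils 2 were higher and 4 lower in KO over both days, with a median log2 change of −0.02. The 2 higher ones had the smallest p of the list. Cpa3, which encodes a mast cell carboxypeptidase, had a log2 change of 1.81 over both days (SE 0.32, limma adjusted p = 0.0570), and Fcer1a, the gene for a chain of the IgE receptor, had 1.84 (SE 0.42, adjusted p = 0.128). Neither was called. Fcer1a lay at the floor on all 3 control arrays of day 7 and on all 4 of day 21. KO could therefore not read lower than control for this gene. The 4 lower ones had changes from −0.18 to −0.01. The summed intensity of the 6 ran from 230.5 to 325 in KO and 144 to 172 in control at day 21, and from 166 to 464 in KO and 132 to 182 in control at day 7. Fetal liver had 136 to 169.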
